A study of Mus musculus with 22 samples.

Results

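The Dppa genes described here are Dppa2, Dppa4, Dppa3 and Dppa5a, 4 of the 47729 gene identifiers counted in mouse embryonic stem (ES) cells. They carry the name developmental pluripotency-associated gene and were chosen by name, not by a measured value, with identifiers matched to symbols through the GENCODE M21 annotation. On the GRCm38 assembly, Dppa2 (ENSMUSG00000072419) lies on the forward strand at chr16:48310477-48319723. Dppa4 (ENSMUSG00000058550) lies next to it on the same strand, at chr16:48283735-48294292. Dppa3 (ENSMUSG00000046323) lies on the forward strand at chr6:122626410-122630272, and Dppa5a (ENSMUSG00000060461) on the reverse strand at chr9:78367052-78368177. Counts cover all annotated exons of each gene, and all 4 genes passed the filter on low counts in both fits.

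The name groups proteins of different function. DPPA2 and DPPA4 bind each other and chromatin, keep a set of CpG-rich promoters free of DNA methylation in mouse ES cells, and activate Dux, which encodes the homeobox factor that switches on genes of the 2-cell embryo. DPPA3 (also called STELLA or PGC7) is a maternal and germ cell protein that removes UHRF1, the partner of the maintenance DNA methyltransferase DNMT1, from chromatin, and its gene is on in only some of the cells in serum-grown ES cultures. DPPA5 (also called ESG1) is a KH-domain RNA-binding protein and an abundant marker of pluripotent cells.

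The study edited the Dux cluster and asks how its copies bear on 2-cell genes. The untreated set has 4 libraries of Dux n=1 clones (17, 22, 31 and 40), 3 of Dux-KO clones (15, 22 and 52), both edited with CRISPR-Cas9, and 3 titled E14-chen, called E14 here. The treated set has 2 libraries each of N22, KO22 and WT cells, given GSK-3484862 or DMSO for 3 days. GSK-3484862, called GSK below, is described by the submitters as a degrader of DNMT1 protein, and its dose is given as 1 uM in the protocol and as 2 uM in the design text. N22 and KO22 are titled as Dux-N22 and Dux-KO22, and each is read here as 1 clone, so genotype and clone cannot be told apart in the treated set. All cells were grown in serum with LIF, and no label names separate cultures. The p-values measure the spread between these libraries, which may be technical within E14 and in the treated set. In the untreated edited groups each library is another clone, so the spread there includes differences between clones.

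Total counts ranged from 15803194 to 19427794 per library, and no 2 libraries of a group agreed within sampling noise. The ES cell markers Pou5f1, Sox2, Nanog, Zfp42, Esrrb, Utf1 and Tdgf1 were counted in every group, with summed levels of at least 3917 CPM (counts scaled to the library total), and summed fibroblast markers reached at most 8.12 CPM. These sums differed with treatment: ES cell markers summed to 3917 to 4058 CPM with GSK, against 4901 to 5083 CPM with DMSO. Trophoblast markers summed to 9.51 to 12.6 CPM with GSK, against 3.69 to 5.98 CPM with DMSO, where Elf5 was at 0. Fibroblast markers summed to 4.03 to 8.12 CPM with GSK, against 1.84 to 2.88 CPM with DMSO, where Postn, Lum and Dcn were at 0. Col1a1 made up most of the fibroblast sums, with 3.85 CPM in WT with GSK. Primed epiblast markers summed to 54.7 to 86.6 CPM with GSK, against 33.0 to 41.6 CPM with DMSO. Pou3f1 made up most of these sums, with 41.6 to 44.3 CPM in N22 with GSK, against 26.0 to 30.7 CPM with DMSO. Otx2 overlapped in N22 (10.7 to 12.6 CPM with GSK, 10.8 to 11.5 CPM with DMSO) and was higher with GSK in KO22 and WT. Not every marker moved with its sum: in WT, Zfp42 had 608 to 611 CPM with GSK, against 575 to 585 CPM with DMSO. Duxf3, the annotated Dux gene, had 0 counts in all 4 KO22 libraries, 13 and 11 counts in N22 with GSK against 3 and 0 with DMSO, and 19 and 18 counts in WT with GSK against 1 and 1 with DMSO. Some untreated libraries stood apart from their labels. Dux-KO clones 15 and 52 held 0 and 1 counts of Duxf3 and 5 and 22 of the Zscan4 family. Dux n=1 clones 17, 22, 31 and 40 held 38, 51, 12 and 5 Zscan4 counts, so these counts alone do not separate the untreated labels. The library labelled Dux-KO clone 22 held 5 counts of Duxf3 and 49 of the Zscan4 family, while all 4 KO22 libraries held at most 1 Zscan4 count. Its chromosome 6 genes had a median log2 difference from E14 of -0.09 relative to the other chromosomes, against 0.26 and 0.33 in Dux-KO clones 15 and 52 and 0.32 to 0.35 from WT in the KO22 libraries. Dux n=1 clone 40 had 0.31 on this measure, against -0.07 to -0.06 in clones 17, 22 and 31. The untreated results below are therefore also given without these 2 libraries, a choice made after their values were seen.

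Per unit of transcript length, Dppa5a was the highest of the 4 genes in all 22 libraries, at 2873 to 5225 TPM (transcripts scaled to the sum over all transcripts). It ranked between 11 and 23 among 21697 protein-coding genes. Dppa4 had 231 to 345 TPM and Dppa2 137 to 247 TPM, and Dppa4 was above Dppa2 in every library. Dppa3 was the lowest and the most variable, at 1.48 to 63.6 TPM, with ranks between 2639 and 11307. Between the lowest and the highest library, the CPM of Dppa3 differed by 43.7-fold, that of Dppa2 by 2.02-fold, that of Dppa5a by 1.96-fold and that of Dppa4 by 1.44-fold. In bulk RNA, fewer cells with a transcript and less of it per cell cannot be told apart.

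**Figure D1:**
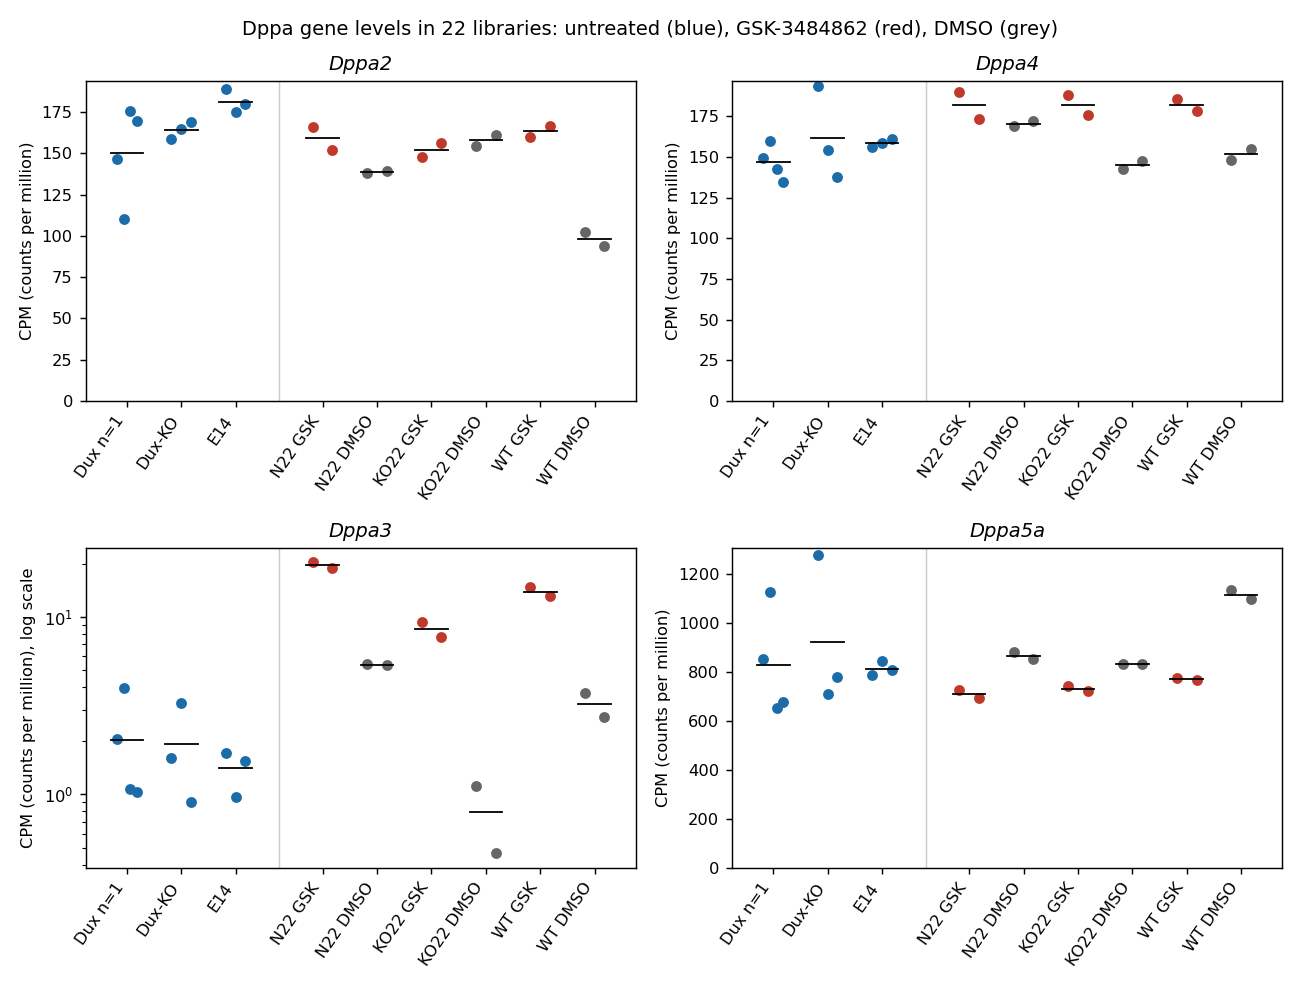
Level of each Dppa gene in CPM (vertical axes; logarithmic for Dppa3, from 0 for the others) in 22 libraries, by group (horizontal axes); points are libraries and bars are group means. Dppa3 is highest in the GSK libraries, and the DMSO libraries of WT are the lowest for Dppa2 and, as a group, the highest for Dppa5a.

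GSK changed most of the 4 genes in each genotype, Dppa3 by far the most. In N22, Dppa3 and Dppa2 rose and Dppa5a fell, where 53% of 16641 genes tested were called (26.9% higher, 26% lower). In KO22, Dppa3 and Dppa4 rose and Dppa5a fell, where 46% of genes were called (24.8% higher, 21.2% lower). In WT, Dppa3, Dppa2 and Dppa4 rose and Dppa5a fell, where 56.8% were called (28.7% higher, 28.1% lower). Calls are at an adjusted p below 0.05 in edgeR's quasi-likelihood test with Benjamini-Hochberg adjustment over all genes, and differences are log2 of GSK over DMSO with their standard error (SE). With about as many genes called as not, a call alone sets no gene apart, and the sizes matter more. The rise of Dppa3 in KO22 was exceeded in size by 292 of the 16641 genes, that in WT by 1116 and that in N22 by 1294, whereas at least 5056 genes moved more than Dppa2, Dppa4 or Dppa5a in any genotype.

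Dppa2 responded unevenly over the genotypes. It had 166 and 152 CPM in N22 with GSK, against 138 and 139.5 CPM with DMSO. In KO22 it had 148 and 156 CPM with GSK, against 155 and 161 CPM with DMSO. In WT it had 160.1 and 166 CPM with GSK, against 103 and 93.6 CPM with DMSO. The GSK and DMSO libraries did not overlap in N22 and WT and overlapped in KO22, and the 2 WT libraries with DMSO were the lowest of all 22. Here and below, overlap is a description only. With so few libraries on a side a gap can arise from noise, and its share over all genes was not counted. Dppa2 rose by 0.67 ± 0.05 in WT (SE, adjusted p = 1.1e-19) and by 0.15 ± 0.05 in N22 (adjusted p = 0.00583), and was -0.07 ± 0.05 in KO22 (adjusted p = 0.253). The rise in N22 lost the call without GSK library 1 of N22 (0.09, adjusted p = 0.203).

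Dppa4, whose protein pairs with DPPA2, followed another order. It had 190.0 and 174 CPM in N22 with GSK, against 169 and 172 CPM with DMSO. In KO22 it had 188 and 176 CPM with GSK, against 143 and 147 CPM with DMSO. In WT it had 185 and 178 CPM with GSK, against 148 and 155 CPM with DMSO. In each genotype the GSK libraries lay above the DMSO libraries, by the smallest margin in N22. Dppa4 rose by 0.32 ± 0.04 in KO22 (adjusted p = 1.2e-08) and by 0.20 ± 0.04 in WT (adjusted p = 9.8e-05), and was 0.04 ± 0.04 in N22 (adjusted p = 0.426), where it turned to -0.02 without GSK library 1.

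The balance of the 2 transcripts therefore varied between groups. Per length, the ratio of Dppa2 to Dppa4 was 0.689 and 0.690 in N22 with GSK, against 0.643 and 0.639 with DMSO. It was 0.619 and 0.698 in KO22 with GSK, against 0.854 and 0.861 with DMSO. In WT it was 0.680 and 0.735 with GSK, against 0.545 and 0.475 with DMSO. With GSK the 6 ratios lay close together, between 0.619 and 0.735, whereas with DMSO the 3 genotypes were apart. In the untreated set the ratio was 0.544 to 0.990 in Dux n=1, 0.644 to 0.966 in Dux-KO and 0.869 to 0.955 in E14, so that the groups overlapped. These ratios are a description without a test.

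Dppa3 rose in all 3 genotypes from low counts. It had 341 and 346 counts (20.3 and 18.9 CPM) in N22 with GSK, against 99 and 101 (5.41 and 5.33 CPM) with DMSO. In KO22 it had 174 and 147 counts (9.42 and 7.71 CPM) with GSK, against 20 and 9 (1.11 and 0.466 CPM) with DMSO. In WT it had 268 and 241 counts (14.7 and 13.1 CPM) with GSK, against 71 and 53 (3.72 and 2.73 CPM) with DMSO. GSK and DMSO libraries did not overlap in any genotype, and the order N22 above WT above KO22 held both with GSK and with DMSO. Dppa3 rose by 1.82 ± 0.15 in N22 (adjusted p = 2.2e-16), by 3.44 ± 0.24 in KO22 (adjusted p = 1.0e-19) and by 2.04 ± 0.17 in WT (adjusted p = 1.4e-16). Leaving out each library in turn gave 1.77 to 1.88 in N22, 2.93 to 4.17 in KO22 and 1.84 to 2.28 in WT.

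Dppa5a was the member that fell in every genotype. It had 728 and 692 CPM in N22 with GSK, against 881 and 853 CPM with DMSO. In KO22 it had 742 and 724 CPM with GSK, against 833 and 835 CPM with DMSO. In WT it had 777 and 766 CPM with GSK, against 1135 and 1099.6 CPM with DMSO. No GSK library reached a DMSO library, and the 2 WT libraries with DMSO were the highest of the treated set. Dppa5a fell by 0.34 ± 0.03 in N22 (adjusted p = 3.4e-15), by 0.20 ± 0.03 in KO22 (adjusted p = 1.1e-07) and by 0.60 ± 0.03 in WT (adjusted p = 4.9e-27). A near-identical copy could share reads with Dppa5a, and multi-mapping reads were not counted, so its absolute level is uncertain. The summed ES cell markers were lower, and the summed trophoblast, fibroblast and primed epiblast markers higher, in the same GSK libraries. Not every single marker moved with its sum, and the part of these markers in the fall of Dppa5a was not tested.

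Named relatives of these genes had few or no counts. Dppa1 had 0 counts in 21 libraries and 2 in WT with GSK, and the pseudogene Dppa3-ps had 0 to 3 counts in any library. Multi-mapping reads were not counted, so low counts do not show that a close copy was silent. Dppa5b and Dppa5c had no matching identifier and were not measured.

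**Figure D2:**
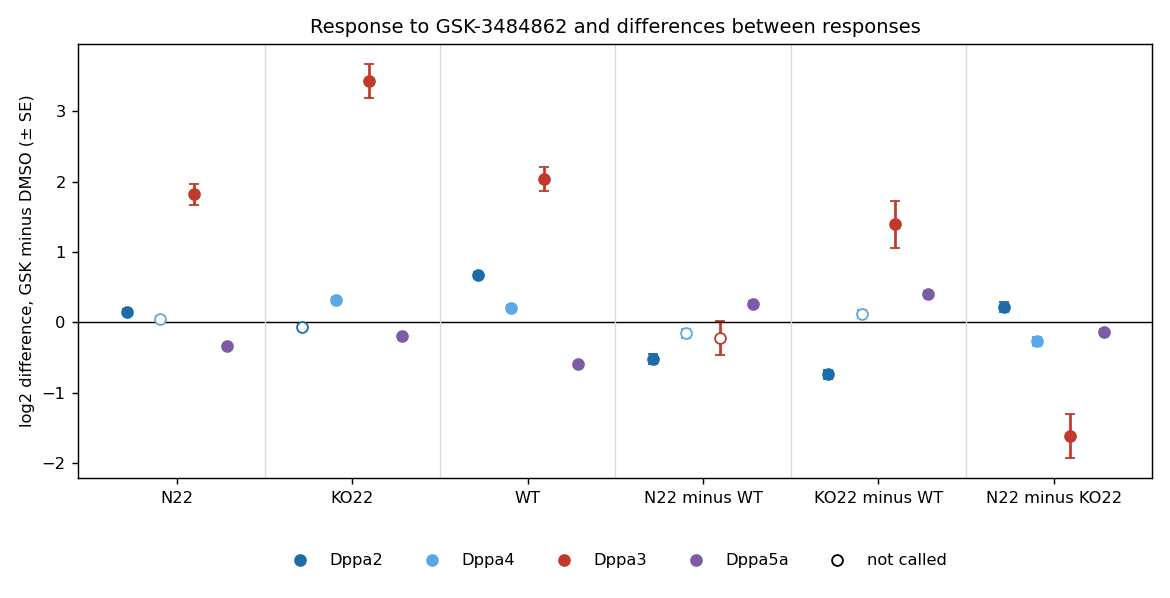
Log2 difference between GSK and DMSO (vertical axis, ± SE from edgeR) of the 4 Dppa genes in N22, KO22 and WT, and the differences between these responses (horizontal axis); open points were not called. Dppa3 rises in all 3 genotypes, most in KO22 (3.44), while the responses of Dppa2 and Dppa5a in N22 and KO22 differ from those in WT.

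Whether the responses themselves differed between genotypes was tested with interaction contrasts. The 3 contrasts share the libraries of each genotype, so they are not independent of each other. For N22 against WT, 1 of the 4 genes was called higher and 1 lower, where 11.1% of genes were called (5.82% higher, 5.26% lower). The Dppa2 response was lower in N22 by 0.52 ± 0.07 (log2 difference -0.52, adjusted p = 1.8e-08), and the Dppa5a response was higher, that is, its fall was smaller, by 0.26 ± 0.04 (adjusted p = 6.1e-06). The differences of -0.16 ± 0.06 for Dppa4 (adjusted p = 0.103) and -0.23 ± 0.24 for Dppa3 (adjusted p = 0.636) were not called. That of Dppa4 passed without GSK library 1 of N22 (-0.23, adjusted p = 0.0193).

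For KO22 against WT, 2 of the 4 responses were called higher and 1 lower, where 31.8% of genes were called (18.3% higher, 13.5% lower). Over all genes these were 3042 higher and 2244 lower, against 2505 and 2743 when scaled by total counts. The Dppa2 response differed by -0.74 ± 0.07 (adjusted p = 2.5e-14). The responses of Dppa3 and Dppa5a differed by 1.39 ± 0.33 (adjusted p = 0.000641) and 0.40 ± 0.04 (adjusted p = 9.9e-12), and that of Dppa4 by 0.12 ± 0.06, which was not called (adjusted p = 0.156). The Dppa3 value rests on 20 and 9 counts in KO22 with DMSO. Without the second of these libraries it was 0.88 and not called (adjusted p = 0.0737), and without the first it was 2.12.

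For N22 against KO22, 1 response was called higher and 3 lower, where 18.6% of genes were called (7.81% higher, 10.8% lower). Over all genes these were 1300 higher and 1801 lower, against 1594 and 1458 when scaled by total counts. The differences were 0.22 ± 0.07 for Dppa2 (adjusted p = 0.0146), -0.27 ± 0.06 for Dppa4 (adjusted p = 0.000808), -1.62 ± 0.32 for Dppa3 (adjusted p = 7.3e-05) and -0.14 ± 0.04 for Dppa5a (adjusted p = 0.0158). Those of Dppa4 and Dppa3 kept the call in all 8 omissions of a library, with a range of -2.34 to -1.10 for Dppa3. That of Dppa2 lost it without KO22 DMSO 2 (0.19, adjusted p = 0.0872), N22 DMSO 1 (0.21, 0.0534), KO22 GSK 1 (0.18, 0.0841) or N22 GSK 1 (0.15, 0.160). That of Dppa5a lost it without KO22 DMSO 1 (-0.13, adjusted p = 0.0566), N22 DMSO 1 (-0.11, 0.135), KO22 GSK 1 (-0.12, 0.0759) or N22 GSK 2 (-0.10, 0.163).

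With DMSO, the edited clones and WT differed in nearly all of the 4 genes. In N22 against WT, 3 were called higher and 1 lower, where 25.4% of genes were called (11.5% higher, 13.9% lower). Dppa2 was higher by 0.50 ± 0.05 (adjusted p = 4.3e-13), Dppa3 by 0.73 ± 0.20 (adjusted p = 0.00288) and Dppa4 by 0.17 ± 0.04 (adjusted p = 0.00271), and Dppa5a was lower (-0.37 ± 0.03, adjusted p = 7.7e-16). Dppa3 lost the call without WT DMSO 2 (0.53, adjusted p = 0.113) and Dppa4 without WT DMSO 1 (0.13, adjusted p = 0.0780).

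In KO22 against WT with DMSO, 1 gene was called higher and 2 lower, where 51.9% of genes were called (23.4% higher, 28.5% lower). Dppa2 was higher by 0.67 ± 0.05 (adjusted p = 1.9e-19). Dppa3 was lower, at -2.06 ± 0.29 (adjusted p = 7.3e-09), and this was -2.79 without KO22 DMSO 1 and -1.55 without KO22 DMSO 2. Dppa5a was lower too, at -0.44 ± 0.03 (adjusted p = 2.5e-20). Dppa4 was not called (-0.08 ± 0.04, adjusted p = 0.121). Thus Dppa2 was higher and Dppa5a lower in both clones than in WT, while Dppa3 was higher in N22 and lower in KO22. Both comparisons share the 2 WT libraries with DMSO, which had the lowest Dppa2 and the highest Dppa5a of the treated set. The labels do not say whether WT is the E14 line: Dppa2 was 103 and 93.6 CPM in WT with DMSO and 175 to 189 CPM in E14, and its log2 differences from E14 were negative in the untreated edited clones (-0.30 in Dux n=1 and -0.19 in Dux-KO, neither called).

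Between the clones with DMSO, N22 against KO22 gave 3 genes called higher and 1 lower, where 39.1% of genes were called (21.1% higher, 18% lower). Dppa3 was higher in N22 by 2.79 ± 0.26 (adjusted p = 2.9e-14), which 195 of 16641 genes exceeded in size. It was 3.52 without KO22 DMSO 1 and 2.28 without KO22 DMSO 2, which hold 20 and 9 counts. Dppa4 was higher by 0.25 ± 0.04 (adjusted p = 3.9e-06) and Dppa2 lower (-0.17 ± 0.05, adjusted p = 0.00246). The call of Dppa2 was lost without KO22 DMSO 2 (-0.14, adjusted p = 0.0627). Dppa5a passed narrowly at 0.07 ± 0.03 (adjusted p = 0.0492) and was not called with DESeq2, RLE factors, total counts, no filter or only the compared groups (0.06 in each, adjusted p = 0.0554 to 0.198), nor without KO22 DMSO 1 or 2 or N22 DMSO 1 (0.05 to 0.08, adjusted p = 0.122 to 0.379).

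With GSK, fewer of these differences were called. In N22 against WT, Dppa3 was called higher (0.51 ± 0.14, adjusted p = 0.00817) and Dppa5a lower (-0.11 ± 0.03, adjusted p = 0.0158), where 9.65% of genes were called (5.05% higher, 4.6% lower). Neither call was firm. Dppa3 lost it with DESeq2 (0.51, adjusted p = 0.0592) and without WT GSK 2 (0.42, 0.152) or N22 GSK 1 (0.45, 0.107), and Dppa5a without WT GSK 1 (-0.10, 0.115) or N22 GSK 2 (-0.07, 0.313). In KO22 against WT, Dppa3 alone was called, lower at -0.67 ± 0.15 (adjusted p = 0.000372), where 22.4% of genes were called (12.3% higher, 10.1% lower; 2044 and 1684 genes, against 1594 and 2150 when scaled by total counts). In N22 against KO22, Dppa3 alone was called, higher at 1.17 ± 0.14 (adjusted p = 6.0e-10), where 24.6% of genes were called (11.7% higher, 12.9% lower). Without N22 GSK 1, Dppa5a was called too (-0.10, adjusted p = 0.0372).

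Dppa2 with GSK ranged from 148 to 166 CPM over the 6 libraries and Dppa4 from 174 to 190.0 CPM, and both overlapped between genotypes except Dppa2 in KO22 (148 and 156 CPM) against WT (160.1 and 166 CPM). Their log2 differences between genotypes were -0.07 to 0.05 for Dppa2 and -0.02 to 0.03 for Dppa4, each with an SE of 0.04 or 0.05. With DMSO, Dppa2 had ranged from 93.6 to 161 CPM without overlap between genotypes. The change of the Dppa2 difference between DMSO and GSK is the interaction given above, which was called in all 3 pairs of genotypes.

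**Figure D3:**
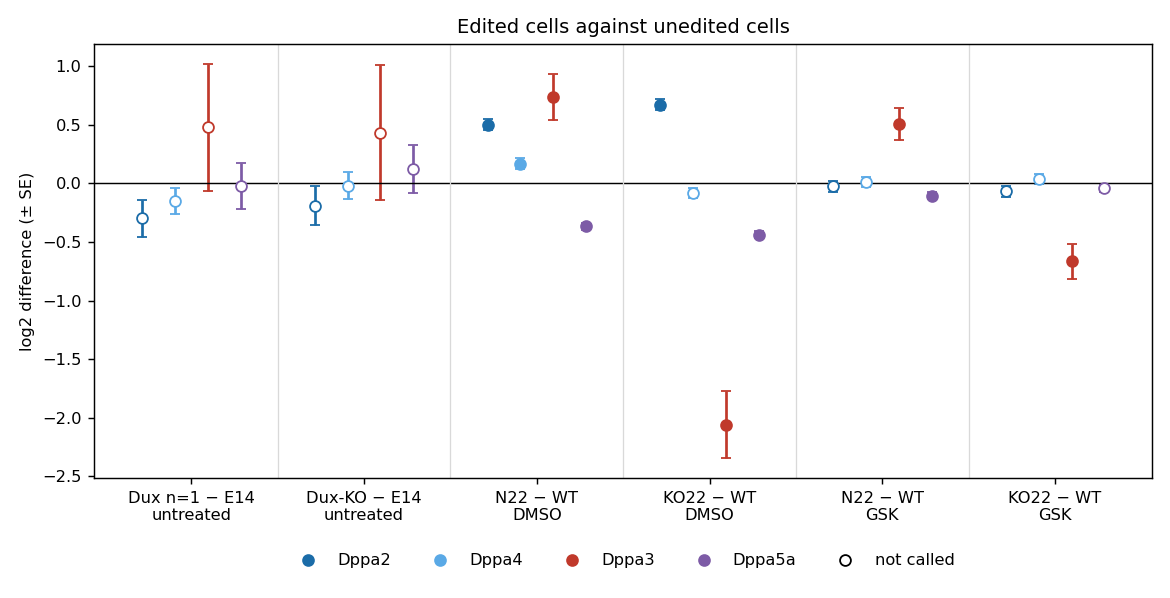
Log2 differences of the 4 Dppa genes (vertical axis, ± SE from edgeR) between edited and unedited cells, for untreated, DMSO and GSK libraries (horizontal axis); open points were not called. With DMSO 7 of 8 differences are called, with GSK 3 of 8, and none in the untreated set. Over all genes, 25.4% (N22) and 51.9% (KO22) were called with DMSO and 9.65% and 22.4% with GSK. In the untreated set 9.16% (Dux n=1) and 20.4% (Dux-KO) were called, with a common biological coefficient of variation of 0.208, against 0.0435 in the treated set.

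In the untreated set none of the 4 genes was called in any comparison, and their levels overlapped between groups except those of Dppa2 in Dux-KO and E14. Dppa2 had 146, 110.3, 176 and 169 CPM in Dux n=1 clones 17, 22, 31 and 40 and 158, 165 and 169 CPM in Dux-KO clones 15, 22 and 52, against 189, 175 and 180.1 CPM in E14. All edited libraries but Dux n=1 clone 31 lay below every E14 library. Dppa4 had 149.6, 159.7, 143 and 135 CPM in Dux n=1 and 194, 154 and 138 CPM in Dux-KO, against 156, 159 and 161 CPM in E14. The E14 values lay within the range of Dux-KO. Dppa3 had 34, 75, 17 and 20 counts in Dux n=1 and 31, 62 and 16 counts in Dux-KO, against 30, 17 and 28 counts in E14. The highest were Dux n=1 clone 22 and the library labelled Dux-KO clone 22, which differs from the KO22 libraries on Duxf3, Zscan4 and chromosome 6. Dppa5a had 854, 1126, 653 and 676 CPM in Dux n=1 and 1278, 710.0 and 778 CPM in Dux-KO, against 789, 845 and 809.7 CPM in E14. Dux n=1 clone 22 combined the lowest Dppa2 of the untreated set with its highest Dppa3 and the second highest Dppa5a.

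Dux n=1 against E14, where 9.16% of 14796 genes were called (4.88% higher, 4.28% lower), gave log2 differences of -0.30 ± 0.16 for Dppa2 (adjusted p = 0.238), -0.15 ± 0.11 for Dppa4 (0.382), 0.48 ± 0.54 for Dppa3 (0.599) and -0.02 ± 0.19 for Dppa5a (0.953). Dux-KO against E14, where 20.4% were called (9.26% higher, 11.1% lower), gave -0.19 ± 0.17 for Dppa2 (adjusted p = 0.459), -0.02 ± 0.12 for Dppa4 (0.928), 0.43 ± 0.57 for Dppa3 (0.634) and 0.12 ± 0.21 for Dppa5a (0.714). Both share the E14 libraries. Dux n=1 against Dux-KO, where 0% of genes were called, gave -0.11 ± 0.16, -0.13 ± 0.11, 0.05 ± 0.53 and -0.15 ± 0.19 in the same order (adjusted p = 0.886 to 0.992). In this last comparison edgeR called 0 genes, 856 passed 0.05 before adjustment, and the count with DESeq2 was 0 too. With a GC content offset, the genes called against E14 were 211 higher and 114 lower in Dux n=1 (722 and 633 without it) and 726 higher and 346 lower in Dux-KO (1370 and 1646 without it). The background also hung on single libraries: Dux n=1 against E14 had 24, 344 and 52 genes called without E14 library 1, 2 or 3 and 351 without Dux n=1 clone 17 (1355 with all), and Dux-KO against E14 had 931, 1739 and 1171 without E14 library 1, 2 or 3 and 1977 without Dux-KO clone 15 (3016 with all). The common biological coefficient of variation was 0.208, against 0.0435 in the treated set.

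Without Dux n=1 clone 40 and the library labelled Dux-KO clone 22, none of the 4 genes was called either. Against E14, 1505 of 15152 genes were then called in Dux n=1 and 3667 in Dux-KO. Dux n=1 against E14 then gave -0.36 for Dppa2, -0.11 for Dppa4, 0.71 for Dppa3 and 0.06 for Dppa5a. Dux-KO against E14 gave -0.23 for Dppa2, -0.02 for Dppa4, -0.24 for Dppa3 and 0.25 for Dppa5a, so that Dppa3 changed sign. Dux n=1 against Dux-KO gave -0.13, -0.09, 0.95 ± 0.53 and -0.19 in the same order (adjusted p = 0.431 to 0.803), with 140 genes called. With a GC content offset, Dppa2 in Dux-KO against E14 turned to 0.16 ± 0.17 (adjusted p = 0.598). Signs also turned without a single library. For Dux-KO against E14 these were Dppa4 without clone 52 (0.10), Dppa5a without clone 15 (-0.15) and Dppa3 without the library labelled clone 22 (-0.24). For Dux n=1 against E14 these were Dppa3 without clone 22 (-0.02) and Dppa5a without clone 31 (0.06) or 40 (0.07).

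Other genes linked to Dux activation and entry into the 2-cell state moved in both directions with GSK. The counts of this and the following lists are to be read against the 53%, 46% and 56.8% of all genes called in N22, KO22 and WT. Of 10 tested, Dppa2 and Dppa4 among them, 3 were called higher and 4 lower in N22 (median -0.04, against 0.00 over all genes), 2 higher and 3 lower in KO22 (median -0.05) and 4 higher and 5 lower in WT (median -0.10). The share called in KO22 is near that of all genes. Trp53, which encodes p53, rose by 0.28 in N22, 0.17 in KO22 and 0.35 in WT. Lin28a, an RNA-binding protein gene, fell (-0.40, -0.27 and -0.35 in the same order), as did Kdm1a, the gene of a histone demethylase that restrains the 2-cell state (-0.38, -0.15 and -0.51). Smarcad1, a chromatin remodeler gene, rose by 0.17 in N22 and 0.52 in WT and was -0.04 in KO22 (adjusted p = 0.614). Its response in KO22 differed from that in WT by -0.56 ± 0.08 (adjusted p = 1.1e-08).

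Genes downstream of DUX were called in fewer members in KO22. All 19 tested members of a list of 2-cell genes rose in N22 and in WT, and 4 of 19 rose in KO22, among them Ddit4l (2.23), Zfp750 (1.91) and Trim43b (2.85). Over all genes 26.9%, 28.7% and 24.8% rose in N22, WT and KO22, so the count in KO22 is not above the background. The response of KO22 was called lower than that of WT in 2 of the 19 and higher in 0, where 13.5% of all genes were called lower. The median of these response differences was -3.54, against 0.03 over all genes, so the few calls do not mean that the responses were alike. With GSK, 16 of the 19 were called lower in KO22 than in WT and 0 higher, where 10.1% of all genes were called lower. In N22 against KO22 with GSK, 18 were called higher and 0 lower, where 11.7% of all genes were called higher. Zscan4, a multigene family of the 2-cell embryo, summed over 5 members to 410 and 411 counts in N22 with GSK against 38 and 47 with DMSO, and to 1114 and 1063 counts in WT with GSK against 90 and 115 with DMSO. In KO22 it summed to 0 and 1 counts with GSK against 0 and 0 with DMSO. Dppa2 and Dppa4 were present with GSK at 148 to 156 and 176 to 188 CPM in KO22, against 152 to 166 and 174 to 190.0 CPM in N22 and WT. N22 and WT with GSK did not differ by call in either gene (-0.02 and 0.01), and their Zscan4 sums were apart. Any link between these RNA levels and Zscan4 was not tested, and protein was not measured.

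Around DPPA3, genes of DNA methylation and its removal were also mixed. Of 13 tested with GSK, 3 were called higher and 7 lower in N22 (median -0.26), 6 and 5 in KO22 (median 0.02) and 4 and 6 in WT (median -0.15). Uhrf1, whose protein DPPA3 binds, fell in all 3 genotypes (-0.33 ± 0.03 in N22, -0.24 ± 0.03 in KO22 and -0.31 ± 0.03 in WT). Dnmt3l, a cofactor of de novo methylation, rose by 1.29, 0.64 and 1.51 in the same order. Tet2, the gene of an oxidase of methylated cytosine, fell (-0.76, -0.84 and -0.40). Zfp57, which protects methylation at imprinted regions, fell in N22 (-0.40) and KO22 (-0.55) and was -0.02 in WT.

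Genes of naive pluripotency, the ES cell state in which Dppa5a and Dppa3 are counted as markers, mostly fell with GSK. Of 22 tested, 3 were called higher and 16 lower in N22 (median -0.30), 2 and 18 in KO22 (median -0.30) and 4 and 15 in WT (median -0.44). Dppa5a fell with this majority and Dppa3 rose against it. Tdgf1, a Nodal coreceptor gene, fell in N22 (-0.84) and WT (-0.84), and the transcription factor gene Tfcp2l1 fell in KO22 (-1.01) and WT (-0.81).

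**Figure D4:**
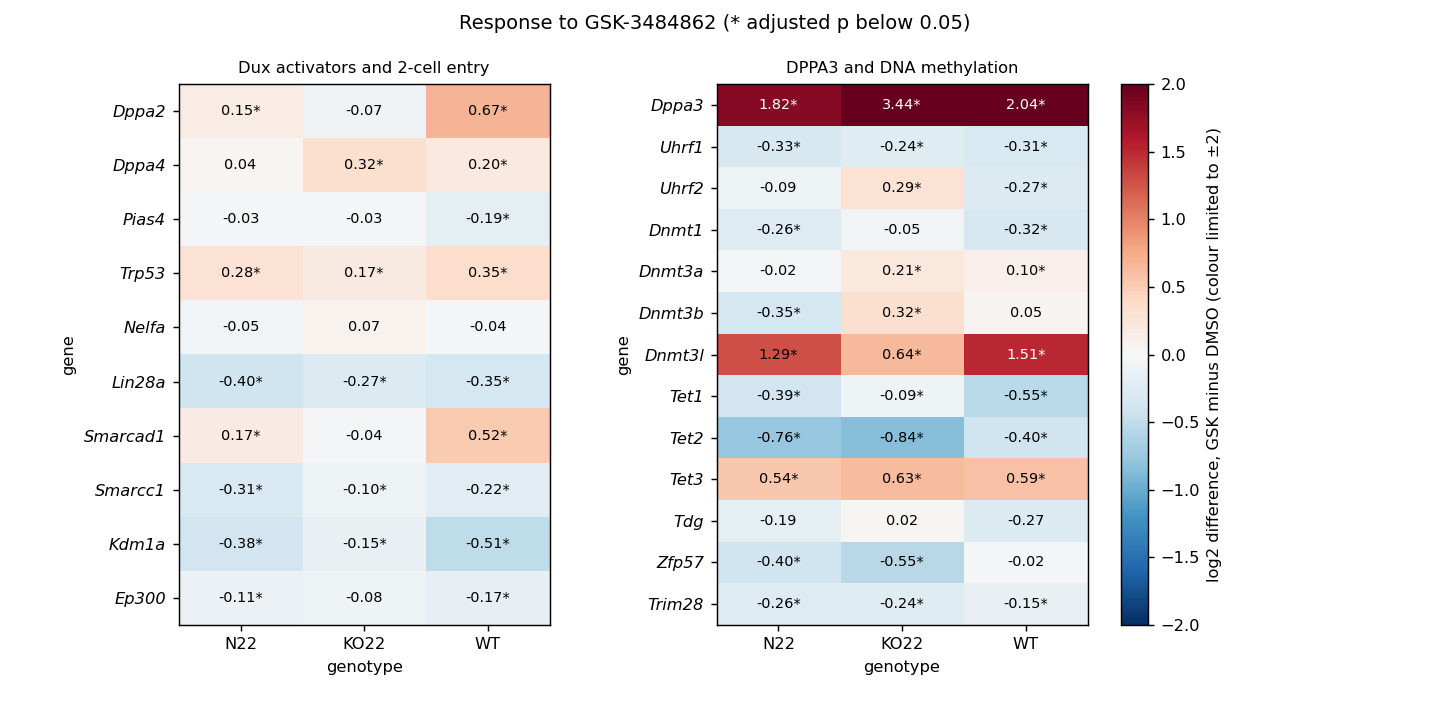
Log2 difference between GSK and DMSO (colour, limited to ±2; numbers give the value, * an adjusted p below 0.05) of genes linked to Dux activation (left) and to DPPA3 and DNA methylation (right), in N22, KO22 and WT (horizontal axes). Dppa3 has the largest value in its panel in each genotype, and Dppa2 the largest in its panel in WT.

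Over all loci, the genes next to the Dppa genes did not share a direction. Of 6 neighbours of Dppa2 and Dppa4 within 500 kb, only Morc1, a germ cell gene 147.5 kb from the start of Dppa4, passed the filter. Morc1 rose by 0.83 ± 0.05 in N22, 0.82 ± 0.05 in KO22 and 1.06 ± 0.05 in WT, so it rose also in KO22, where Dppa2 was not called. Like Dppa2, Morc1 was called higher than in WT with DMSO in N22 (0.37) and KO22 (0.35). Its responses, like those of Dppa2, were called lower than in WT in N22 (-0.23) and KO22 (-0.24). With GSK, Morc1 was called higher than in WT in N22 (0.14), where Dppa2 was not called. Of 39 neighbours of Dppa3, 17 were tested, and 2 were called higher and 5 lower in N22, 1 and 4 in KO22 and 3 and 6 in WT, shares no larger than those of all genes (53%, 46% and 56.8%). Gdf3, a TGF-beta family gene 16.3 kb away, rose in N22 (0.54) and WT (0.44) and fell in KO22 (-0.14). Nanog, the pluripotency factor gene, fell (-0.23 in N22, -0.64 in KO22 and -0.28 in WT), as did the glucose transporter gene Slc2a3 (-1.33, -0.86 and -1.28 in the same order). None of the tested neighbours of Dppa3 had a response as large as that of Dppa3 in any genotype. Of 28 neighbours of Dppa5a, 15 were tested, and 5 were called higher and 6 lower in N22, 5 and 5 in KO22 and 5 and 5 in WT. These shares are larger than those of all genes (53%, 46% and 56.8%), a difference that was not tested. Ooep, an oocyte gene of the same KH-domain family, fell (-1.04, -1.22 and -0.97), and Cd109, which encodes a cell surface protein, rose (2.09, 2.42 and 1.82).

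**Figure D5:**
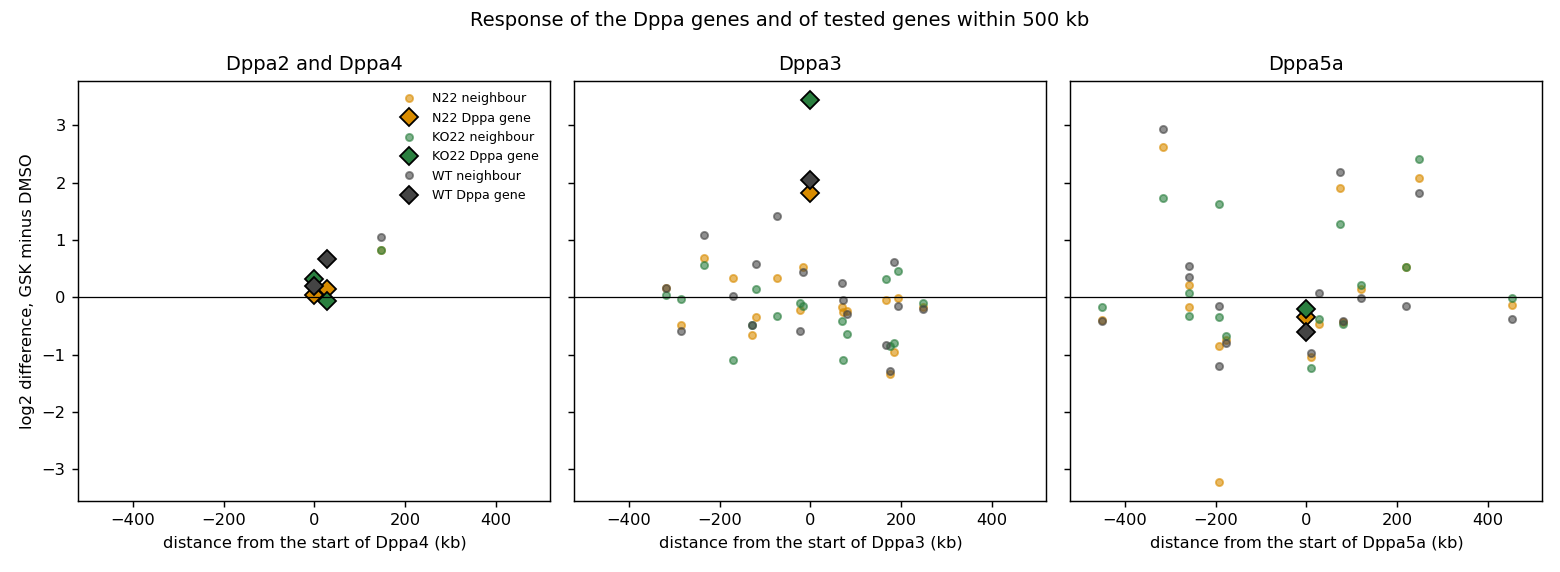
Log2 difference between GSK and DMSO (vertical axis) of the Dppa genes (diamonds) and of tested genes within 500 kb (dots) by distance in kb from the start of Dppa4, Dppa3 or Dppa5a (horizontal axes), in N22, KO22 and WT. Neighbours of Dppa3 and Dppa5a lie on both sides of 0, Morc1 near Dppa4 lies above 0, and the Dppa3 diamonds lie above all dots around Dppa3.

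The level of chromosome 6, which carries Dppa3, differed between clones. In KO22 against WT, its 805 tested genes had a median log2 difference of 0.27 with DMSO and 0.35 with GSK, against -0.06 and -0.01 on the other chromosomes. Dppa3 was lower in KO22 in both comparisons, opposite to this median, while Gdf3 was higher by 1.13 ± 0.05 and Nanog by 0.37 ± 0.03 with DMSO. In N22 against WT the chromosome 6 median was -0.08 with DMSO and -0.08 with GSK, and Dppa3 was higher. Within genotypes the chromosome 6 median of the response to GSK was 0.02 in N22, -0.01 in KO22 and 0.03 in WT.

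Across the 22 libraries, after the mean of each set was taken out, the 4 genes did not vary as a unit. Pearson's r of log2 CPM was 0.22 between Dppa2 and Dppa4, -0.74 between Dppa2 and Dppa5a, 0.65 between Dppa4 and Dppa3, and 0.00 between Dppa2 and Dppa3. The libraries share groups and depth, so these are descriptions. Among 11264 other genes, the patterns most like Dppa2 were those of Nifk (r = 0.96), Polr2d (0.96) and Gpatch4 (0.95). The closest to Dppa4 were Rpl41 (0.87) and Rps27l (0.81), named as ribosomal protein or ribosomal protein-like genes. Maml2 (0.93), Capn3 (0.92) and Bglap3 (0.91) were closest to Dppa3, and Prkra (0.95), Zfp330 (0.92) and Yae1d1 (0.92) to Dppa5a. Ranked by Spearman's rho instead, the leading 3 genes kept none of these for Dppa2, 1 for Dppa5a and 2 for Dppa3.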

How the data were processed

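Libraries from 22 mouse ES cell samples were made from 1 ug of total RNA with the VAHTS Universal V6 kit, as the labels' protocols state. The submitters' processing notes name fastp 0.23.2, HISAT2 2.1.0, featureCounts 2.0.1, DESeq2 1.40.2 and the GRCm38 build. Per the file headers, the authors' deposited tables hold raw counts of paired reads per gene of Ensembl 84, with neither multi-mapping reads nor strand, so a gene and its antisense or overlapping partner share counts. GENCODE M21 gave symbols for 47310 of 47729 identifiers.

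The 10 untreated and the 12 treated libraries were fitted apart with edgeR 4.0.16 in R 4.3.3, using TMM factors, filterByExpr at a count minimum of 10 and the quasi-likelihood test in its robust form, with no term for replicates. Benjamini-Hochberg adjustment ran over 14796 and 16641 genes, and calls are at 0.05. CPM are counts relative to the library total, and TPM use the gene lengths in the files. The code was tested on simulated counts. Depth limits Dppa3, which had 9 to 346 counts per library.

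Alternatives were DESeq2 1.42.0, RLE factors, total counts, no filter, only the compared groups, a GC content offset, a replicate block, each library left out and, chosen after seeing the data, 2 untreated libraries left out. The 4 genes were chosen by name, and the 9 further lists with earlier results of these data known (112 of 113 list genes found). Other genes are named by the smallest p, up to 3 of each list and locus in a genotype, or by the 3 highest r for each Dppa gene, 1 of which is not reported here. Replicate numbers gave little sign of pairs among the treated libraries: correlations of same-numbered deviations were -0.03 to 0.14 over 15 group pairs. The 2 above 0.1 were WT DMSO with WT GSK (0.14) and with N22 GSK (0.12). With 2 libraries a group, these values cannot show that no libraries were handled together.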

Additional observations from a re-analysis of the deposited data

Results flagged for a closer look

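The responses of the Dppa genes to GSK-3484862 differed between genotypes in 9 of 12 interaction tests, and each difference is given here as log2 with its libraries in the report. The Dppa2 response differed by -0.52 in N22 against WT, by -0.74 in KO22 against WT and by 0.22 in N22 against KO22. The Dppa4 response differed by -0.27 in N22 against KO22. The Dppa3 response differed by 1.39 in KO22 against WT and by -1.62 in N22 against KO22. The Dppa5a response differed by 0.26 in N22 against WT, by 0.40 in KO22 against WT and by -0.14 in N22 against KO22. Over all genes, 11.1% of responses were called different in N22 against WT, 31.8% in KO22 against WT and 18.6% in N22 against KO22. The difference of Dppa3 in KO22 against WT lost the call in 1 of 8 omissions of a library. Those of Dppa2 and Dppa5a in N22 against KO22 each lost it in 4 of 8, and that of Dppa5a also with total counts. For Dppa2 the WT libraries with DMSO stood low, for Dppa5a they stood high, and for Dppa3 the KO22 libraries with DMSO stood low. N22 and KO22 are 1 clone each, so a difference between clones and a difference between Dux genotypes cannot be told apart.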

How the results depend on the processing

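With all libraries kept, or only the 2 doubtful untreated libraries left out, 453 values of the Dppa genes kept their direction and their side of the threshold, 7 lost the call and 8 turned, all of them differences that were not called. With total counts, Dppa4 turned in Dux-KO against E14 (0.030) and in N22 against WT with GSK (-0.0016), as did Dppa5a in Dux n=1 against E14 (0.023). With a GC content offset, Dppa2 (0.16) and Dppa4 (0.033) turned in Dux-KO against E14, and Dppa3 in Dux n=1 against Dux-KO (-0.021). Without the 2 libraries, Dppa3 turned in Dux-KO against E14 (-0.24) and Dppa5a in Dux n=1 against E14 (0.061). Dppa5a lost the call in N22 against KO22 with DMSO under DESeq2 (0.065), RLE factors (0.065), total counts (0.056), no filter (0.058) and only the compared groups (0.063), and in the response of N22 against KO22 with total counts (-0.10). Dppa3 lost it in N22 against WT with GSK under DESeq2 (0.51), which left 1 Dppa gene called there. Genes called moved by over 1.5 times in Dux n=1 against E14 (2515 with DESeq2, 2450 with only the compared groups, 325 with the GC offset, 1355 as reported), in Dux-KO against E14 (1072 with the GC offset, 3016 as reported), and with DESeq2 in the responses of N22 against WT (1178) and N22 against KO22 (2047) and with GSK in N22 (935) and KO22 (2451) against WT. Dux n=1 against Dux-KO had 140 genes called without the 2 libraries. The cause of these changes was not tested.

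Leaving out each library in turn kept 278 values, turned 20, ended 20 calls and added 2. A group left with 1 library is taken to vary like the others. The values of results that changed ranged as follows. For Dppa2 they were -0.20 to 0.026 in Dux n=1 against Dux-KO, 0.087 to 0.22 in the N22 response, 0.15 to 0.28 in the response of N22 against KO22, -0.20 to -0.14 in N22 against KO22 with DMSO, -0.093 to 0.040 in N22 against WT with GSK and -0.019 to 0.11 in N22 against KO22 with GSK. For Dppa4 they were -0.13 to 0.10 in Dux-KO against E14, -0.019 to 0.11 in the N22 response, -0.23 to -0.092 in the response of N22 against WT, 0.13 to 0.20 in N22 against WT with DMSO, -0.058 to 0.077 in N22 against WT with GSK, -0.019 to 0.079 in KO22 against WT with GSK and -0.087 to 0.047 in N22 against KO22 with GSK. For Dppa3 they were -0.24 to 0.78 in Dux-KO against E14, -0.020 to 0.71 in Dux n=1 against E14, -0.46 to 0.73 in Dux n=1 against Dux-KO, 0.88 to 2.12 in the response of KO22 against WT, 0.53 to 0.97 in N22 against WT with DMSO and 0.42 to 0.59 in N22 against WT with GSK. For Dppa5a they were -0.15 to 0.25 in Dux-KO against E14, -0.17 to 0.069 in Dux n=1 against E14, -0.30 to 0.14 in Dux n=1 against Dux-KO, -0.17 to -0.10 in the response of N22 against KO22, 0.048 to 0.10 in N22 against KO22 with DMSO, -0.15 to -0.069 in N22 against WT with GSK and -0.10 to -0.024 in N22 against KO22 with GSK. Genes called then numbered 931 to 3572 for Dux-KO against E14, 24 to 1237 for Dux n=1 against E14, 2811 to 3048 for N22 against WT with DMSO and 884 to 972 for N22 against WT with GSK. Dppa genes called then numbered 2 to 4 for the response of N22 against KO22, 2 to 4 for N22 against KO22 with DMSO, 1 to 1 for N22 against WT with GSK and 1 to 2 for N22 against KO22 with GSK.

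The replicate block changed no call of a Dppa gene, with or without the GC offset: the WT response of Dppa2 was 0.67 and the KO22 response of Dppa3 was 3.44, with 8788, 7683 and 9459 genes called in N22, KO22 and WT. No paired analysis was possible in the untreated set because Dux-KO and Dux n=1 clones share only the number 22, and E14 is numbered by replicate. Medians over neighbours and chromosomes moved in 32 of 60 values without the filter. The promoter description was not run. Depth limits Dppa3 in KO22 with DMSO, at 20 and 9 counts.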

Other observations

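Other gene lists with a link to the Dppa genes moved as follows with GSK-3484862, where 53%, 46% and 56.8% of all genes were called in N22, KO22 and WT. Of 9 primordial germ cell genes, with Dppa3 itself among them, 5 were called higher and 3 lower in N22, 5 and 2 in KO22 and 3 and 3 in WT. Dazl, a germ cell RNA-binding protein gene, rose by 2.99 in N22, 3.15 in KO22 and 3.04 in WT, and Kit, a receptor gene, fell in N22 (-0.62) and WT (-1.08). Tfap2c, a germ cell and trophoblast factor gene, rose by 1.20 in KO22, a response that differed from that in WT by 1.32 (adjusted p = 4.7e-20 with edgeR). Like Dppa3, it was lower in KO22 than in WT with DMSO, at -1.98.

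Of 12 tested genes of the formative and primed epiblast, 2 were called higher and 7 lower in N22, 9 and 0 in KO22 and 4 and 1 in WT, with medians of -0.31, 1.04 and 0.10. Pou3f1 rose by 0.55 in N22, 1.12 in KO22 and 1.12 in WT, and Lef1 fell by 1.40 in N22 and rose by 1.85 in KO22. Of 12 primitive endoderm genes, 6 were called higher and 2 lower in N22, 7 and 2 in KO22 and 9 and 1 in WT, among them Sparc at 0.75, 0.36 and 0.77. Of 8 tested trophoblast genes, 4 were called higher and 1 lower in N22, 5 and 1 in KO22 and 4 and 0 in WT. Of 5 tested fibroblast genes, 2 were called higher and 3 lower in N22, 2 and 3 in KO22 and 2 and 2 in WT.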
